A study of Silurus meridionalis with 18 samples.

Results

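The gill and the kidney of the southern catfish (Silurus meridionalis), a scaleless bottom-dwelling freshwater fish, were compared gene by gene. The comparison set the Gill library against the Kidney library, 2 of the 18 tissue libraries of the study, over all 25390 genes of the deposited expression table. The study made 1 library per tissue from polyadenylated RNA of adult fish taken from a benthic environment, and both libraries share that description. No strain, sex, treatment or number of fish is given in the labels for either organ, so neither library has a replicate. Every difference below is a difference between 2 libraries, with no test and no replicate error.

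A freshwater fish gains water and loses salt across its body surface. The gill takes up sodium, chloride and calcium through ionocytes, mitochondria-rich cells of the gill epithelium, and passes ammonia and acid to the water. The kidney filters blood at the glomerulus, reabsorbs salts, sugars and amino acids along the tubule and releases a dilute urine, and in bony fishes the tissue around the tubules also makes blood cells.

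Levels are FPKM, fragments per kilobase of gene model scaled to library depth, as the authors deposited them. A gene entered the comparison if it reached 5 FPKM in either library, which 12596 genes did. A log2 ratio is log2 of (Gill FPKM + 1) over (Kidney FPKM + 1), so it is above 0 where Gill was higher, and it understates the difference of genes with low values. Genes were counted as higher in an organ when the ratio was at least 4-fold, a log2 ratio of 2 in size. By this rule 1242 genes were higher in Gill, which is 9.86% of those compared, and 1027 were higher in Kidney, which is 8.15%. The median log2 ratio of all genes compared was 0.18, and list medians are given beside that value. Counts of list members are to be read beside the 9.86% and 8.15% of all genes. The barbels, 2 libraries of like tissue, gave a yardstick of how far like libraries lie apart: 62 of 9962 genes, 0.622%, were at least 4-fold apart there. The median size of a log2 ratio was 0.17 between the barbels and 0.55 between Gill and Kidney.

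**Figure D1:**
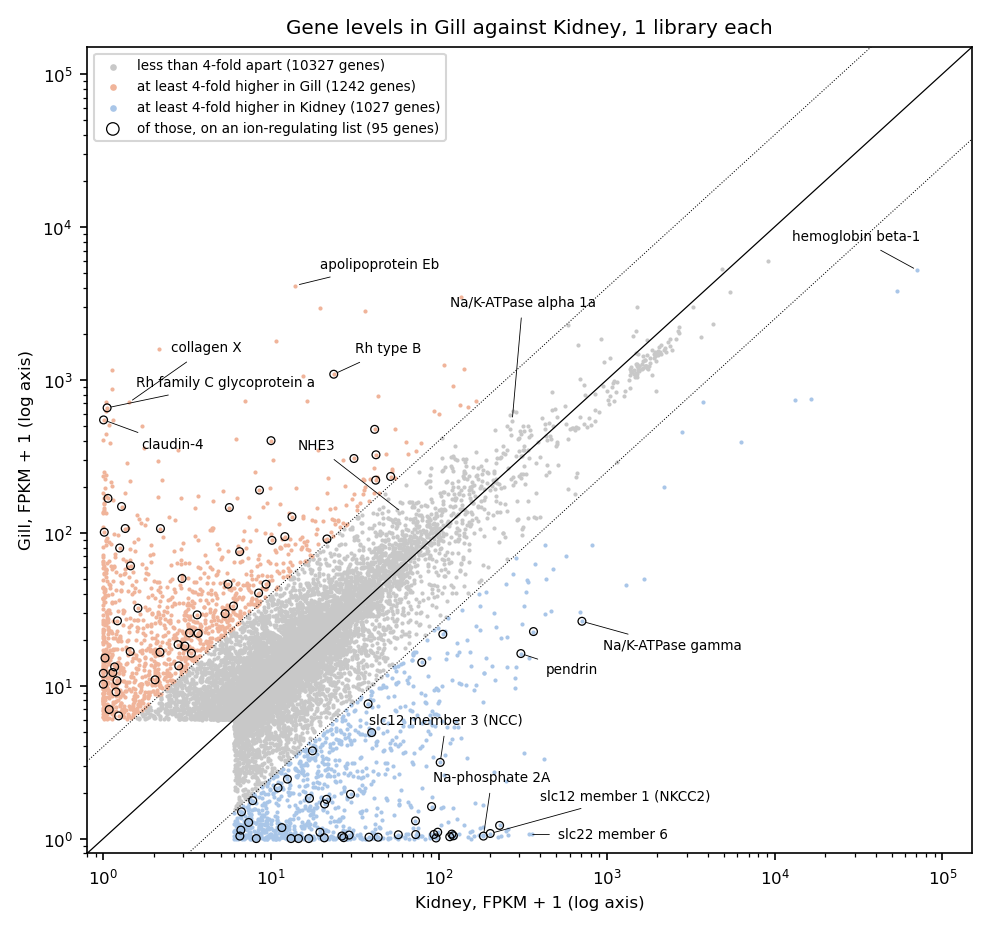
Each point is 1 of 12596 genes, with its FPKM + 1 in Kidney on the x axis and in Gill on the y axis, both on log scales, 1 library per organ. The dotted lines mark 4-fold; 1242 genes lie above them and 1027 below, and circles mark the 95 of these that belong to a list of ion regulation.

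Depth, as estimated from low values, was alike in the pair. The commonest low value of FPKM times coding kilobases put Gill at 51000000 fragments and Kidney at 48300000, if it stands for 1 fragment. On that basis a gene at 5 FPKM with the median coding length of 1270.5 bases would rest on about 324 and 307 fragments. The summed FPKM was 520763 in Gill and 652812 in Kidney. Hemoglobin genes took 1.89% of that sum in Gill and 21.6% in Kidney, beside 33.9% in Head_kidney, the blood-forming front part of the kidney that was sampled as a separate tissue. Mitochondrial genes took 3.26% in Gill and 4.25% in Kidney.

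The tissue labels were checked against marker genes. Of 14 tubule marker models, 12 reached 5 FPKM in Kidney and none did in Gill or Head_kidney; their summed level was 1599 FPKM in Kidney, 3.80 in Gill and 3.57 in Head_kidney. Podocin, the filter-slit protein of the glomerulus (C0J45_08576), stood at 13.3 FPKM in Kidney and was listed at 0 in Gill. Of 16 ionocyte marker models, 11 reached 5 FPKM in Gill and 10 in Kidney, with summed levels of 2131 and 553 FPKM. Cartilage markers passed 5 FPKM for 5 of 7 models in Gill and for none in Kidney. Tubule markers thus set Kidney apart from Gill, and cartilage markers set Gill apart from Kidney, while ionocyte markers were present in both. The cartilage markers are not particular to Gill: aggrecan (C0J45_05257) had 56.3 FPKM in Gill and 228 in the higher barbel. Markers of the steroid and chromaffin cells of the head kidney summed to 0.921 FPKM in Gill and 0.609 in Kidney, beside 1984 in Head_kidney, and none of the 8 models reached 5 FPKM in either organ. Erythroid markers were present in both, at a summed 9914 FPKM in Gill and 141528 in Kidney. In bulk tissue, fewer cells of a type and less RNA per cell cannot be told apart.

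The genes of ion and water regulation were read in 16 lists, which together matched 438 gene models. Of these, 236 were compared, 50 were higher in Gill, 45 were higher in Kidney and 141 were neither. That is 21.2% and 19.1%, beside 9.86% and 8.15% for all genes. Their common median log2 ratio was 0.17, beside 0.18 for all genes. The lists parted by role: ammonia carriers and tight junction genes lay toward Gill, while phosphate, sulfate and anion carriers lay toward Kidney.

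**Figure D2:**
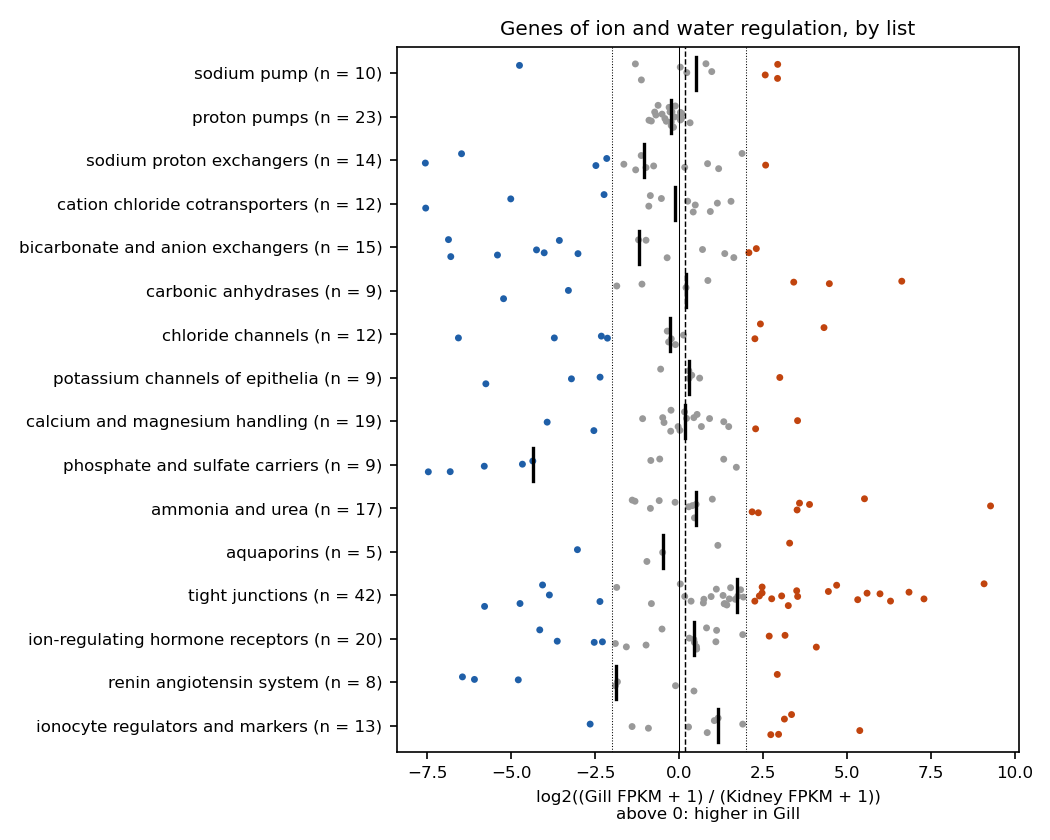
Each point is a gene model of an ion or water regulation list compared between the organs, the x axis is the log2 ratio of Gill over Kidney, and n is the number of models compared. Black bars are list medians, the dashed line is the median of all genes at 0.18 and dotted lines mark 4-fold; phosphate and sulfate carriers have the lowest list median at -4.36 and tight junctions the highest at 1.71.

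The ammonia carriers held the largest ratio toward Gill of the ion lists. Rh glycoproteins are membrane channels for ammonia, and in fishes they carry nitrogen waste across the gill. Rh family C glycoprotein a (C0J45_08767, chromosome 9, 9900591 to 9904077, 11 coding exons) had 654 FPKM in Gill and 0.0526 in Kidney, a log2 ratio of 9.28. Rh type B (C0J45_04094, chromosome 4, 12823730 to 12828807, 10 coding exons) had 1086 FPKM in Gill and 22.6 in Kidney, a log2 ratio of 5.53. Rh type C-like 2 (C0J45_09915, chromosome 10, 13067573 to 13079028, 11 coding exons) had 232 FPKM in Gill and 50.5 in Kidney, a log2 ratio of 2.18, which became 1.97 with both libraries at the same upper quartile. All of these were highest in Gill among the 18 tissues. The type B and type C-like 2 genes were present in Kidney as well, while Head_kidney had 0.0647 and 0.0625 FPKM and both barbels were listed at 0. Rh type A (C0J45_20114), a form known from red blood cells, had 208 FPKM in Gill and 226 in Kidney, with 423 in Head_kidney. Its log2 ratio of -0.12 was unlike that of hemoglobin beta-1 (C0J45_19307), -3.77, and which cells gave the Gill level was not tested.

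Enzymes that make or bind nitrogen waste were mixed. Glutamine synthetase (C0J45_00688), which binds ammonia into glutamine, had 473 FPKM in Gill and 40.4 in Kidney, a log2 ratio of 3.52. Its second copy (C0J45_17444) was close in the pair, at 58.5 and 42.3 FPKM. A neighbouring pair of urea transporter 1 genes on chromosome 27 stood at 14.2 FPKM (C0J45_22420) and 11.04 FPKM (C0J45_22419) in Gill, against 0.0230 and a listed 0 in Kidney. Another model of that name (C0J45_06398), under the filter, was listed at 0 in Gill and had 2.35 FPKM in Kidney. Mitochondrial carbamoyl-phosphate synthase (C0J45_02560), the entry enzyme of the urea cycle, was low in both at 5.34 and 0.232 FPKM. Argininosuccinate synthase (C0J45_21108) and lyase (C0J45_13955), later steps of that cycle, lay toward Kidney without reaching 4-fold, at 52.98 against 141 FPKM and 16.5 against 42.5 FPKM. In this list 7 of 17 models compared were higher in Gill and none in Kidney, with a median of 0.51.

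The sodium pump, which powers salt transport in both organs, was high in both. Its alpha 1a subunit (C0J45_20890) had 535 FPKM in Gill and 272 in Kidney, a log2 ratio of 0.98, and its beta 1a subunit (C0J45_00761) had 826 and 473 FPKM, a log2 ratio of 0.80. The alpha 1a model spans 69 coding exons and 10626 coding bases, far more than the 3096 of its neighbour C0J45_20892, so several gene copies may be joined in it. That neighbour, also an alpha 1 subunit, had 51.4 FPKM in Gill and 43.6 in Kidney. An alpha 1 fragment of 276 coding bases on an unplaced scaffold (C0J45_25002) had 322 and 41.1 FPKM, and its reads could belong to a near-identical copy. The small gamma subunit (C0J45_21574), an FXYD protein that tunes the pump in the mammalian kidney, went the other way, with 25.4 FPKM in Gill and 710 in Kidney, a log2 ratio of -4.75. Of 10 pump genes compared, 3 were higher in Gill and this 1 in Kidney, with a median of 0.52. The alpha 1 fragment is among those 3 and had the largest log2 ratio of the list, 2.94.

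The vacuolar proton pump, which acidifies the apical side of ionocytes and of tubule intercalated cells, differed little. None of its 23 genes compared was 4-fold apart, and log2 ratios ran from -0.90 to 0.33. The B subunit named for the kidney (C0J45_08355) had 30.9 FPKM in Gill, 35.9 in Kidney and 52.8 in Head_kidney. The catalytic A subunit (C0J45_18187) had 43.7 in Gill and 51.5 in Kidney. All models of the list summed to 913 FPKM in Gill, 1035 in Kidney and 1256 in Head_kidney. Such levels are thus not particular to the 2 organs, and which cells gave them was not tested. The list median was -0.23, and it changed sign to 0.09 when both libraries were scaled to the same summed FPKM.

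Among the sodium-proton exchangers, NHE3 (C0J45_23322), the apical exchanger of gill ionocytes in fishes and of the proximal tubule in mammals, had 135 FPKM in Gill and 59.0 in Kidney, a log2 ratio of 1.18 that did not reach 4-fold. It had 0.0302 FPKM in Head_kidney and at most 0.0154 in the barbels. A gene named for the endosomal form NHE6 (C0J45_11055) had 20.97 FPKM in Gill and 2.67 in Kidney, a log2 ratio of 2.58. The scaffold proteins that tether NHE3 at the brush border lay toward Kidney. NHE-RF3 (C0J45_02807) had 0.218 FPKM in Gill and 229 in Kidney, its second copy (C0J45_11456) had 0.101 and 97.3, and NHE-RF1 (C0J45_07288) had 13.2 and 77.96. The NHE-RF3 genes were higher still in Intestine, at 405 and 167 FPKM. The list held 1 gene higher in Gill, 7.14%, and 4 in Kidney, 28.6%, of 14 compared, with a median of -1.06. The shares of all genes were 9.86% and 8.15%.

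Of 12 cation chloride cotransporters and their kinases compared, none was higher in Gill and 3 were higher in Kidney, with a median of -0.13. NKCC2, the sodium-potassium-chloride cotransporter that reabsorbs salt in the distal nephron (slc12 member 1, C0J45_11934, chromosome 13, 280784 to 304023, 26 coding exons), had 0.0792 FPKM in Gill and 201 in Kidney, a log2 ratio of -7.55. NCC, the thiazide-sensitive sodium-chloride cotransporter of the late nephron (slc12 member 3, C0J45_12244, chromosome 13, 11951347 to 11963640, 21 coding exons), had 2.15 and 101 FPKM, a log2 ratio of -5.01. Both were highest in Kidney among the 18 tissues. NKCC1 (slc12 member 2, C0J45_10902), the secretory form that seawater gills use to excrete salt, was low in both, at 6.61 FPKM in Gill and 2.45 in Kidney. The gene named slc12 member 10.1 (C0J45_22914), whose zebrafish counterpart takes up sodium and chloride in the skin and gill, was listed at 0 in both.

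The carriers of bicarbonate and other anions lay toward Kidney, with 7 of 15 compared higher there, 2 higher in Gill and a median of -1.21. Pendrin, the chloride-bicarbonate exchanger of intercalated cells and of fish ionocytes (C0J45_16220), had 15.2 FPKM in Gill and 307 in Kidney, a log2 ratio of -4.25. The pendrin model spans 37 coding exons and 4425 coding bases, far more than the 2154 of its slc26 neighbour C0J45_16219, so gene copies may be joined in it. A tandem pair of slc26 member 6 genes on chromosome 17, exchangers of chloride, oxalate and sulfate, stood at 121 FPKM (C0J45_15691) and 42.4 FPKM (C0J45_15690) in Kidney against 0.0423 and 0.0206 in Gill. Sulfate anion transporter 1 (C0J45_13768), the basolateral sulfate exchanger of the tubule, had 0.0699 FPKM in Gill and 118 in Kidney. Each of these genes was highest in Kidney among the 18 tissues.

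Paralogs within the bicarbonate family divided between the organs. The electrogenic sodium bicarbonate cotransporter 1, which moves bicarbonate across the basolateral membrane, had a copy at 44.99 FPKM in Gill and 8.32 in Kidney (C0J45_13687) and a copy at 3.93 in Gill and 38.7 in Kidney (C0J45_22527). Their log2 ratios were 2.30 and -3.01. Among the 18 tissues the first copy was highest in Gill, but the second was highest in Brain, at 197 FPKM. Anion exchanger 1 also divided by copy. The 1b copy (C0J45_06740) had 90.0 FPKM in Gill, 20.5 in Kidney and 0.0107 in Head_kidney. Its log2 ratio of 2.08 fell under 4-fold, to 1.91, when the median ratio was set to 0. The copy named band 3 (C0J45_12960), the exchanger of the red cell membrane, had 21.6 in Gill, 365 in Kidney and 655 in Head_kidney, an order of tissues that the globin genes also had.

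Carbonic anhydrases, which turn carbon dioxide and water into bicarbonate and acid, also had organ-biased members. Carbonic anhydrase XVb (C0J45_06829), of a membrane-bound class found in zebrafish ionocytes, had 99.8 FPKM in Gill and 0.0125 in Kidney, a log2 ratio of 6.64. Carbonic anhydrase 14 (C0J45_10939), a transmembrane form, had 189 and 7.52 FPKM, a log2 ratio of 4.48. Carbonic anhydrase 4 (C0J45_13954), the membrane-anchored form of the mammalian proximal tubule, had 0.0212 FPKM in Gill and 37.3 in Kidney, a log2 ratio of -5.23. A cytosolic form named only carbonic anhydrase (C0J45_18024) was highest in Head_kidney at 1295 FPKM, with 648 in Kidney and 179 in Gill. Another model of that name (C0J45_03656) had 131 FPKM in Gill, 71.9 in Kidney and 48.6 in Head_kidney, and was highest in Retina at 320. Of 9 compared, 3 were higher in Gill and 2 in Kidney, and the median of 0.21 changed sign with the filter, to -0.39 at 1 FPKM and -0.07 with no filter.

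**Figure D3:**
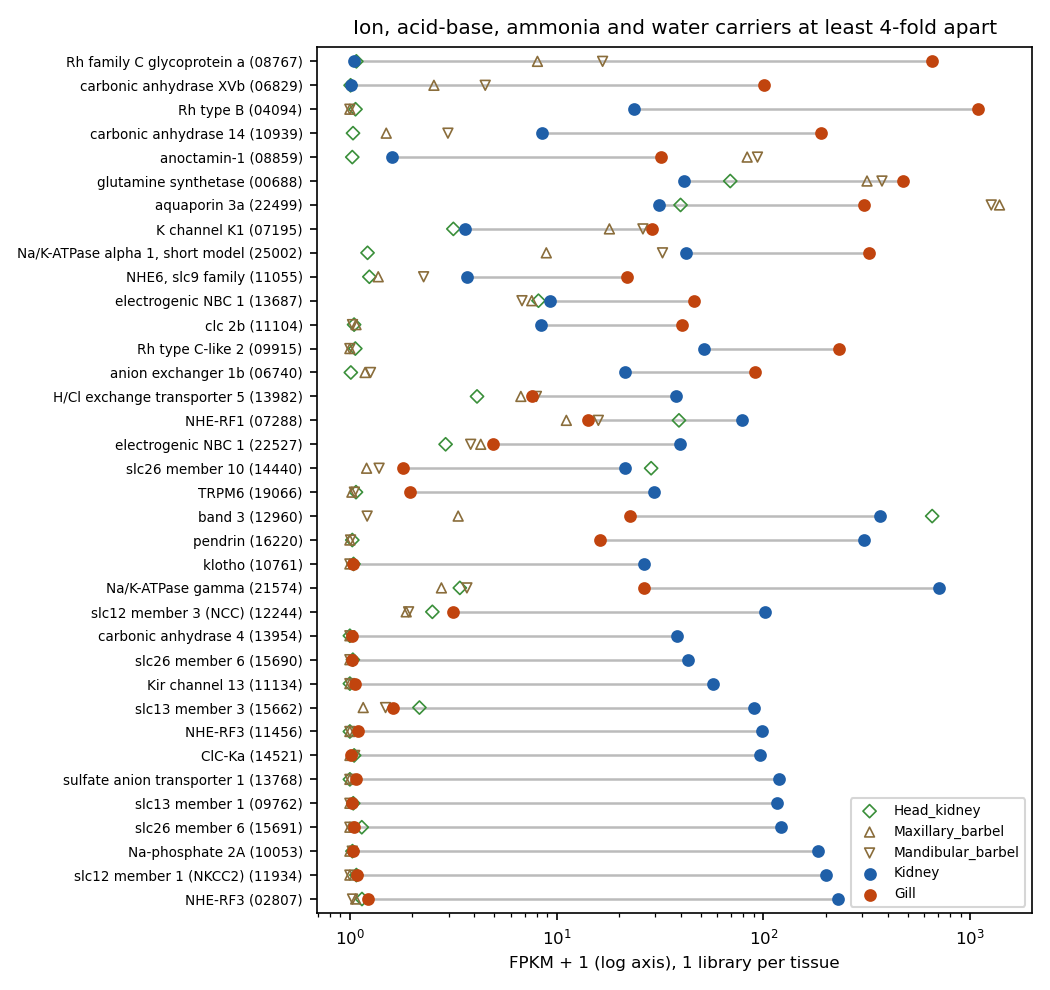
The x axis is FPKM + 1 on a log scale for 36 carriers, channels and enzymes at least 4-fold apart and at 20 FPKM or more in the higher organ, with the last digits of the locus tag in brackets. Filled points are Gill and Kidney and open symbols are Head_kidney and the barbels, 1 library each; Rh type B stands at 1086 FPKM in Gill and 22.6 in Kidney, the NHE-RF3 gene C0J45_02807 at 0.218 and 229.

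Chloride channels held 3 genes higher in Gill and 4 in Kidney of 12 compared. Their median of -0.27 became 0.01 when both libraries were scaled to the same summed FPKM. A voltage-sensitive chloride channel 2b gene (C0J45_11104), of the family whose zebrafish member is the basolateral chloride exit of salt-absorbing ionocytes, had 39.3 FPKM in Gill, 7.42 in Kidney and 0.0481 in Head_kidney. Anoctamin-1 (C0J45_08859), a calcium-activated chloride channel, had 31.1 in Gill and 0.607 in Kidney, and it was higher in the barbels at 82.5 and 92.7. ClC-Ka (C0J45_14521), the basolateral chloride channel of the nephron, had 0.00870 FPKM in Gill and 95.0 in Kidney, and its subunit barttin (C0J45_19899) was listed at 0 in Gill and had 12.1 in Kidney. CFTR (C0J45_12303), the apical chloride channel of seawater gill ionocytes, was low in both, at 0.771 FPKM in Gill and 6.76 in Kidney, and its log2 ratio of -2.13 became -1.92 with both libraries at the same sum.

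Of 9 potassium channels of epithelia compared, 1 was higher in Gill and 3 in Kidney, and the median of 0.29 changed sign or reached 0 under 5 of the alternatives tried. Inward rectifier 13 (C0J45_11134), a channel of transporting epithelia, had 0.0591 FPKM in Gill and 56.2 in Kidney, and was highest in Kidney among the 18 tissues. The leak channel named K member 1 (C0J45_07195) had 28.0 in Gill and 2.62 in Kidney.

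Of 19 calcium and magnesium genes compared 2 were higher in each organ, 10.5%, near the 9.86% and 8.15% of all genes, and the median was 0.16. TRPV6, the apical calcium entry channel of ionocytes (C0J45_03837), had 31.4 FPKM in Gill, 19.4 in Kidney and a listed 0 in Head_kidney, a log2 ratio of 0.67. The magnesium channel TRPM6 (C0J45_19066), which in mammals recovers magnesium in the distal tubule, had 0.9504 in Gill and 28.7 in Kidney, and 64.4 in Intestine. The magnesium carrier slc41 member 1 (C0J45_16907) went the other way, with 15.7 in Gill and 0.444 in Kidney. Sodium/calcium exchanger 2 (C0J45_21596), which extrudes calcium, had 0.137 and 5.596 FPKM, and the calcium-permeable channel TRPV4 (C0J45_22659) had 15.3 and 2.35.

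Phosphate and sulfate carriers had the lowest median of the ion lists, -4.36, with 5 of 9 compared higher in Kidney and none in Gill. Sodium-phosphate transporter 2A (C0J45_10053), the brush border carrier that recovers filtered phosphate in mammals, had 0.0377 FPKM in Gill and 183 in Kidney. The sulfate carrier slc13 member 1 (C0J45_09762) had 0.0275 and 115 FPKM, and the dicarboxylate carriers slc13 member 3 (C0J45_15662) and member 5 (C0J45_14113) had 0.618 against 89.3 and 0.0113 against 19.7. These 4 carriers were highest in Kidney among the 18 tissues. Klotho (C0J45_10761), the co-receptor of a phosphate-lowering hormone, had 0.0390 in Gill and 25.4 in Kidney and was higher in Liver at 38.99. The housekeeping phosphate transporter 1-B (C0J45_10446) was close in the pair, at 8.29 and 12.8 FPKM.

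Only 5 of 18 aquaporin models reached 5 FPKM in either organ. Aquaporin 3a (C0J45_22499), a water and glycerol channel, had 305 FPKM in Gill and 30.1 in Kidney, a log2 ratio of 3.30, but 1388 in Maxillary_barbel. Aquaporin-10 (C0J45_23282), a glycerol channel of the intestine, was listed at 0 in Gill and had 7.15 in Kidney.

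Tight junction genes, which seal the space between epithelial cells, lay toward Gill. Of 42 compared, 18 were higher in Gill, 42.9%, and 5 in Kidney, 11.9%, with a median of 1.71. Claudins set which ions pass between cells, and a run of claudin genes on chromosome 20 showed both biases. Claudin-4 (C0J45_17887, 13728164 to 13728802) had 545 FPKM in Gill and 0.00283 in Kidney, a log2 ratio of 9.09. Claudin f (C0J45_17886) beside it had 126 and 12.3 FPKM, and claudin-3 (C0J45_17883, 13694527 to 13703513) had 0.0139 in Gill and 26.1 in Kidney. A second run on chromosome 15 was higher in Gill at claudin b (C0J45_13939, 399 against 8.98 FPKM) and at claudin-4 copies C0J45_13942 (147 against 0.283) and C0J45_13943 (105 against 0.350). The barbels had claudin b at 989 and 985 FPKM but at most 1.14 of these claudin-4 copies of chromosome 15. The claudin-4 gene of chromosome 20 (C0J45_17887) was present in the barbels, with 113 FPKM in Maxillary_barbel and 178 in Mandibular_barbel.

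Claudin-10 genes side by side on chromosome 3 had opposite organs. Claudin 10a (C0J45_03208, 25583983 to 25586438) had 0.306 FPKM in Gill and 71.4 in Kidney, a log2 ratio of -5.79. The next 2 genes, both named claudin-10, had 32.2 in Gill and 4.96 in Kidney (C0J45_03209, 25593761 to 25596833) and 45.1 and 4.53 (C0J45_03210, 25606147 to 25607758). In zebrafish and mammals claudin-10 forms lend the junction ion selectivity. Occludin, a membrane protein of the junction, also divided by copy: C0J45_10693 had 145 FPKM in Gill and 4.63 in Kidney, C0J45_19010 had 74.2 and 5.49, and C0J45_15939 had 2.96 and 13.4. Claudins are short and alike, and reads of near-identical copies could have been split between them.

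**Figure D4:**
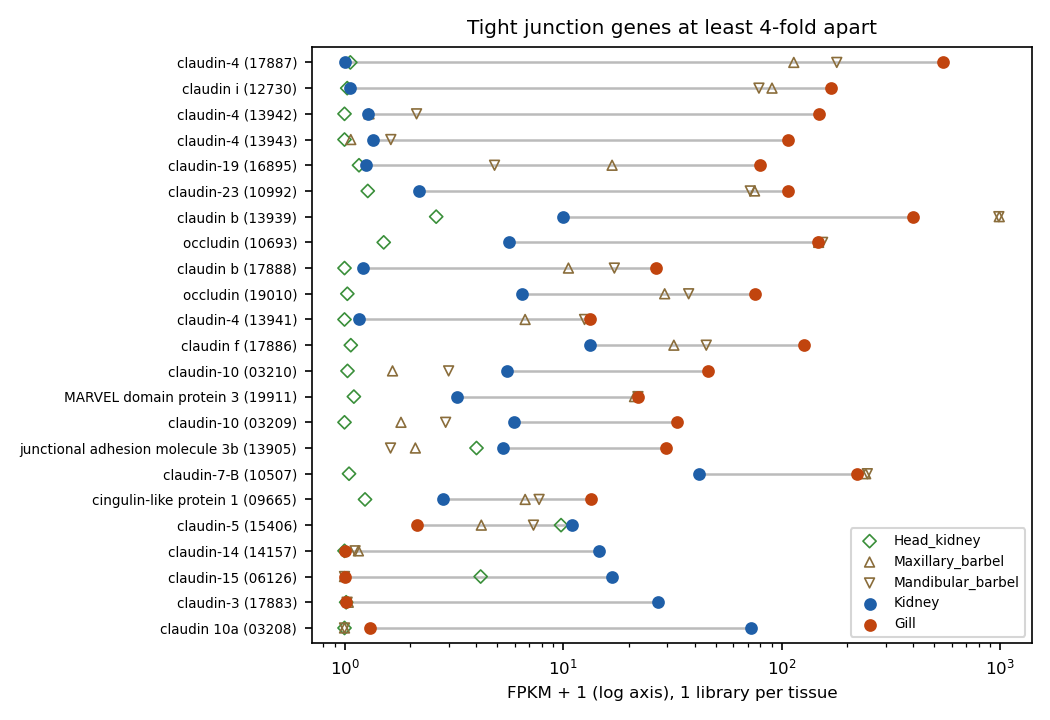
The x axis is FPKM + 1 on a log scale for the 23 tight junction genes at least 4-fold apart between Gill and Kidney, with the last digits of the locus tag in brackets, 1 library per tissue. 18 genes are higher in Gill (top) and 5 in Kidney (bottom), and open symbols show Head_kidney and the barbels.

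Of 20 receptors and related genes for hormones of salt balance compared, 3 were higher in Gill, 15%, and 4 in Kidney, 20%. That is beside 9.86% and 8.15% of all genes, and the median was 0.45. Natriuretic peptide receptors parted by type. Receptor 3 (C0J45_22571), which clears the peptides, had 49.2 FPKM in Gill and 1.94 in Kidney, a log2 ratio of 4.09. Receptor 1 (C0J45_04062), the guanylate cyclase form, had 0.683 in Gill and 19.8 in Kidney, a log2 ratio of -3.63. The heat-stable enterotoxin receptor (C0J45_23509), which binds guanylin peptides, had 0.0999 and 18.5 FPKM, and 49.3 in Intestine. The kinase Sgk1 (C0J45_14365), which corticosteroids induce, had 20.7 in Gill and 104 in Kidney, with a log2 ratio of -2.28 that became -1.96 with both libraries at the same sum. The mineralocorticoid receptor (C0J45_01188) had 13.2 and 2.82, and prolactin receptor b (C0J45_22445) 4.803 and 16.2, both short of 4-fold.

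In the renin angiotensin list 3 of 8 genes compared were higher in Kidney and 1 in Gill, with a median of -1.87. The members behind that count were peptidases: glutamyl aminopeptidase (C0J45_01707) had 0.0540 FPKM in Gill and 28.1 in Kidney, and aminopeptidase N copies had 92.2 (C0J45_05500) and 71.6 (C0J45_05501) in Kidney against 0.0642 and 0.0623 in Gill. Another aminopeptidase N copy (C0J45_08777) had 15.5 in Gill and 1.17 in Kidney. These enzymes also trim peptides at the brush border, and all 3 of the Kidney-biased genes were highest in Intestine. Angiotensin-converting enzyme (C0J45_06933) was close in the pair at 16.7 and 18.02 FPKM.

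Regulators of ionocytes were present in both organs and lay toward Gill, with 5 of 13 compared higher there, 1 in Kidney and a median of 1.17. Forkhead box I3a (C0J45_13994), whose zebrafish counterpart directs ionocyte fate, had 93.3 FPKM in Gill and 11.1 in Kidney, a log2 ratio of 2.97. Forkhead box I1 (C0J45_04968), which in mammals specifies intercalated cells, had 35.9 and 8.91, short of 4-fold. The factor GCMb (C0J45_18363), which in zebrafish acts in proton-secreting ionocytes and in the gill, had 88.1 and 9.11. The epidermal factor p63 (C0J45_00751), a marker of epithelial stem cells, had 59.7 and 0.452, with up to 163 in the barbels. Transcription factor CP2-like 1 (C0J45_02834), a regulator of the mammalian distal nephron, had 0.0380 in Gill and 5.51 in Kidney.

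The solute carriers of the tubule gave the largest number of genes higher in Kidney of any list. Of 66 compared, 41 were higher in Kidney, 62.1%, and 4 in Gill, 6.06%, with a median of -3.22. The organic anion carrier slc22 member 6 (C0J45_14019, chromosome 15, 13053861 to 13059047, 9 coding exons), which takes up drugs and urate for secretion, had 0.0639 FPKM in Gill and 341 in Kidney, a log2 ratio of -8.33. The organic cation carrier slc22 member 2 (C0J45_20228) had 0.193 and 182 FPKM, and multidrug and toxin extrusion protein 1 (C0J45_14115), its apical partner, was listed at 0 in Gill and had 55.9 in Kidney. Sodium/glucose cotransporter 2 (C0J45_11199), which recovers filtered glucose, had 0.606 and 66.9, and cotransporter 1 (C0J45_10443) had 0.0294 and 123. The glucose cotransporter 1 gene was higher in Intestine at 217 FPKM, whereas cotransporter 2 was highest in Kidney among the 18 tissues.

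Amino acid carriers shared that direction. Excitatory amino acid transporter 3 (C0J45_06212) had 0.0470 FPKM in Gill and 87.3 in Kidney, and the neutral and basic amino acid protein slc3 member 1 (C0J45_01742), the heavy chain of the cystine carrier, had 0.583 and 101. Copies of its light chain, the b(0,+)-type transporter, lie in tandem on chromosome 8, where C0J45_08225 had 54.4 FPKM and C0J45_08226 had 40.04 in Kidney, against 0.0305 and 0.0929 in Gill. The 4 members higher in Gill included multidrug resistance protein 1 (C0J45_04007), an efflux pump, at 46.6 against 0.274 FPKM, and the glucose transporter 1 gene (C0J45_00536), at 133 against 11.7.

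Endocytosis and brush border genes followed, with 15 of 29 compared higher in Kidney, 3 in Gill and a median of -2.31. Megalin (C0J45_03092) and cubilin (C0J45_04196), the receptors that recover filtered protein, had 173 and 112 FPKM in Kidney against 0.0498 and 0.291 in Gill. Their partner amnionless (C0J45_13214) had 1.07 in Gill and 58.0 in Kidney. Collectrin (C0J45_15065), a chaperone of amino acid carriers, had 0.0541 and 255, and gamma-glutamyltranspeptidase 1 (C0J45_11015), which cleaves glutathione, had 0.151 and 256. The 3 members higher in Gill were an aminopeptidase N copy and 2 models named cathepsin L.1, the larger of which (C0J45_08385) had 122 FPKM in Gill and 0.623 in Kidney.

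The other genes with the largest differences toward Kidney belong to adhesion and metabolism. Cadherin-17 (C0J45_18395), an adhesion protein of the fish nephron, had the largest ratio, with 0.0768 FPKM in Gill and 358 in Kidney, a log2 ratio of -8.38. Vitelline membrane outer layer protein 1 (C0J45_19134) had 0.114 and 251, sulfotransferase 1C1 (C0J45_06763), a conjugating enzyme, 0.0392 and 234, and alanine aminotransferase 2 (C0J45_06610) 0.0207 and 225. Mitochondrial alanine-glyoxylate aminotransferase 2 (C0J45_13586) had 0.0569 and 181. A cytochrome P450 of family 2 (C0J45_05407) had 0.0456 and 160, with 190 in Liver, and transmembrane and immunoglobulin domain-containing protein 1 (C0J45_14118) was listed at 0 in Gill and had 154 in Kidney and 2402 in Intestine.

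Regulators of kidney development were higher in Kidney for 14 of 20 compared and in Gill for 2, with a median of -2.90. Hepatocyte nuclear factor 1-beta-B (C0J45_14128), a master factor of the tubule, had 0.340 FPKM in Gill and 127 in Kidney, and Pax-8 (C0J45_21191) and Pax-2a (C0J45_01532), factors of the nephron lineage, were listed at 0 in Gill and had 25.3 and 9.49 in Kidney. GATA-3 (C0J45_11760) was an exception, with 247 in Gill and 7.06 in Kidney. It is a factor of several lineages and stands on the lymphoid and pharyngeal arch lists too.

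Genes of motile cilia, which in fishes drive fluid along the nephron, were higher in Kidney for 27 of 39 compared, 69.2%, and in Gill for none, with a median of -2.69. Their levels were moderate. Forkhead box J1-A (C0J45_13277), the master factor of motile cilia, had 0.162 FPKM in Gill and 8.47 in Kidney, the axonemal motor dynein heavy chain 5 (C0J45_03536) had 0.00770 and 9.86, and parkin coregulated gene protein (C0J45_07697), an axoneme protein, had 1.04 and 34.6. All 3 were highest in Kidney among the 18 tissues.

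Glomerular genes were split, with 3 of 17 compared higher in Kidney, 6 in Gill and a median of 0.26 that changed sign under 3 alternatives. Podocin and the factor wilms tumor 1a (C0J45_05367, 0.0149 against 6.75 FPKM), both of the podocyte, were higher in Kidney, though the latter had 90.9 in Spleen. The members higher in Gill included 4 models of collagen IV alpha chains 4 and 5, chains of the basement membrane of the mammalian glomerulus. The largest of these ratios was that of an alpha-4 chain (C0J45_11189), with 34.1 FPKM in Gill and 0.524 in Kidney. Nephrin (C0J45_11738), the core protein of the filter slit, stayed under the filter at 0.00652 and 4.49.

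Hemoglobin genes took 21.6% of the summed FPKM of the Kidney library and 1.89% in Gill, which is not a share of cells. Erythroid genes were higher in Kidney for 17 of 28 compared, with 1 higher in Gill and a median of -2.52. The 1 higher in Gill was anion exchanger 1b (C0J45_06740), which had only 0.0107 FPKM in Head_kidney, unlike the globin genes. Hemoglobin beta-1 (C0J45_19307) was the highest gene of the Kidney library at 70869 FPKM, with 5202 in Gill and 146911 in Head_kidney. Alpha globin (C0J45_19306) had 3822, 53264 and 109323 FPKM in Gill, Kidney and Head_kidney. The red cell enzyme 5-aminolevulinate synthase (C0J45_15580), the first step of heme synthesis, had 29.9, 467 and 908 in the same order. Kidney thus stood between Gill and Head_kidney for hemoglobin beta-1, alpha globin and this enzyme. A model on a short scaffold with no protein name (C0J45_24543) had 735, 13304 and 26837 FPKM, in the same order of tissues.

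The granulocyte and macrophage list lay toward Kidney by its median, though not in every member, and the lymphoid list did not lie clearly toward either organ. For granulocytes and macrophages 9 of 26 compared were higher in Kidney and 3 in Gill, with a median of -1.35. Matrix metalloproteinase-9 (C0J45_15536), an enzyme of granulocytes, had 24.3 FPKM in Gill, 313 in Kidney and 670 in Head_kidney. The scavenger receptor MARCO (C0J45_03044) had 2.94, 75.6 and 46.1. Other macrophage genes did not share that direction. The gene named macrophage expressed 1 (C0J45_15473) had 41.6 FPKM in Gill and 14.5 in Kidney. Macrophage colony-stimulating factor 1 receptor (C0J45_10020) was level at 21.6 and 21.9. For lymphoid cells 6 of 26 were higher in Kidney, 23.1%, and 3 in Gill, 11.5%, beside 8.15% and 9.86% of all genes. Their median of -0.07 changed sign with both libraries at the same sum, to 0.22. Their summed level was 692 FPKM in Gill and 576 in Kidney. GATA-3 (C0J45_11760), which stands on other lists too, had the largest ratio toward Gill of this list, 4.94. It is among the 3 higher in Gill, and without it the Gill sum would lie below that of Kidney. The list held no model of the antigen receptor chains named next, which were looked up after values were seen. Of 85 models compared that are named immunoglobulin lambda-1 light chain, a chain of antibodies, 81 were higher in Kidney and 0 in Gill. All models of that name summed to 172 FPKM in Gill, 2991 in Kidney and 5462 in Head_kidney. Of 10 models named T-cell receptor beta chain V region 5 were compared, and all 5 were higher in Kidney. The shares of all genes were 8.15% higher in Kidney and 9.86% in Gill. Models under 5 FPKM in Gill entered the comparison only through their Kidney level, which by itself favours these counts. The models share a name, and reads could have been split among them, so they are not separate observations. V(D)J recombination-activating protein 2 (C0J45_09907), used by developing lymphocytes, had 0.178 FPKM in Gill and 19.04 in Kidney, while a C-C chemokine receptor type 9 gene (C0J45_05888), a homing receptor, had 122 in Gill and 21.9 in Kidney. The part of blood cells in the other differences was not tested. Of the 1027 genes higher in Kidney, 256, 24.9%, were highest in Head_kidney, beside 7.98% of all genes compared. Kidney itself was highest for 331, 32.2%, beside 6.31% of all genes. Picking genes for a high Kidney level by itself raises that last share. Leaving the hemoglobin and mitochondrial genes out and scaling both libraries to the same sum gave 1225 genes higher in Gill and 1036 in Kidney. That step kept 12581 genes, so other genes of blood cells remained.

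**Figure D5:**
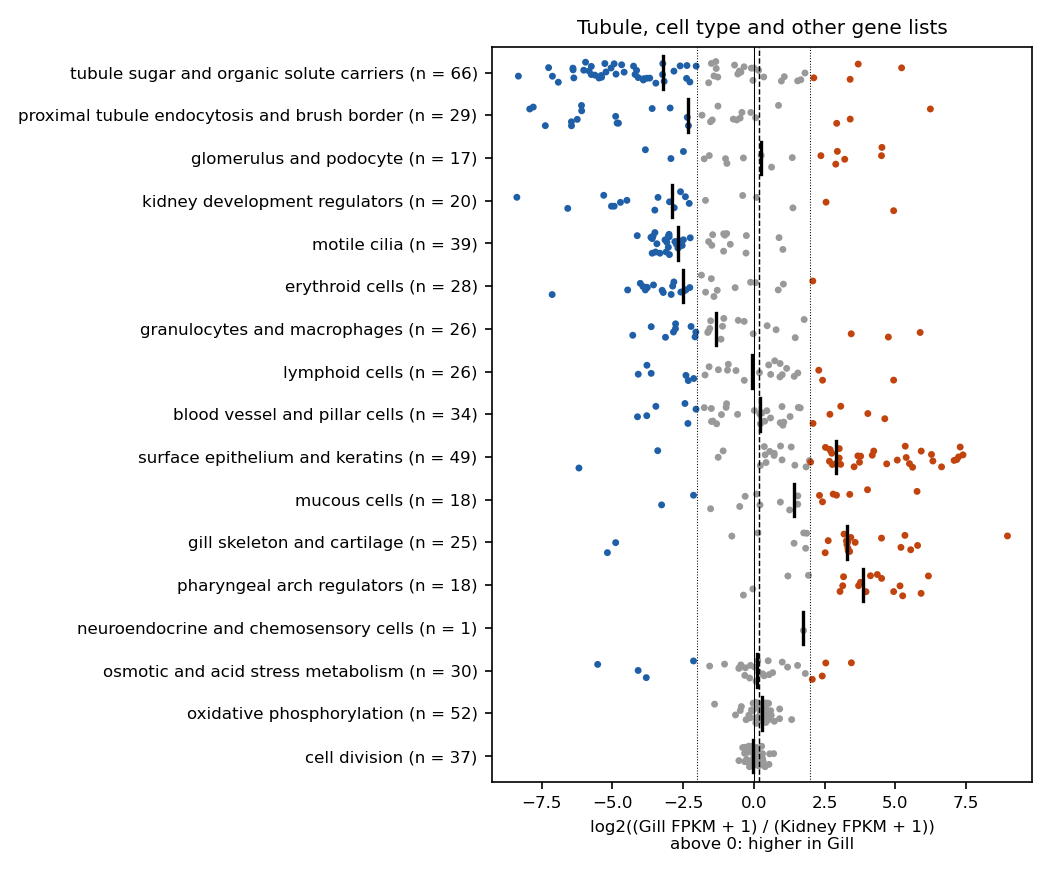
Each point is a gene model of a tubule, cell type or other list compared between the organs, the x axis is the log2 ratio of Gill over Kidney, and n is the number of models compared. Black bars are list medians, the dashed line is the median of all genes at 0.18 and dotted lines mark 4-fold; medians run from -3.22 for tubule solute carriers to 3.87 for pharyngeal arch regulators.

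On the Gill side the surface epithelium led in number. Of 49 genes compared, 32 were higher in Gill, 65.3%, and 2 in Kidney, with a median of 2.92. Keratin 4 (C0J45_00982), a filament protein of surface cells, had 2819 FPKM in Gill, 35.3 in Kidney and 26435 in Maxillary_barbel. A type I cytokeratin (C0J45_20521) had 1795 and 9.69, and periplakin (C0J45_12797), a linker of filaments to junctions, had 220 and 1.22. Epithelial cell adhesion molecule, a membrane protein of epithelia, divided by copy: C0J45_01759 had 1173 in Gill and 139 in Kidney, and C0J45_07299 had 0.0287 and 73.9. The same genes were high in the barbels, where the type I cytokeratin had 1778 in Maxillary_barbel and 1703 in Mandibular_barbel, periplakin 160.5 and 196, and C0J45_01759 1238 and 1228. Skin had 5442 of the type I cytokeratin. Of the 1242 genes higher in Gill, 310, 24.96%, were highest in a barbel, beside 10.7% of all genes compared. Gill itself was the highest of the 18 tissues for 637, 51.3%, beside 16.5% of all genes compared. Picking genes for a high Gill level by itself raises that last share.

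Mucous cell genes were higher in Gill for 7 of 18 compared and in Kidney for 2, with a median of 1.41. A mucin-5AC gene (C0J45_05605), a secreted gel mucin, had 262 FPKM in Gill and 51.6 in Kidney. Other mucin-5AC copies went both ways, short of 4-fold. C0J45_12688 had 13.7 FPKM in Gill and 41.4 in Kidney, C0J45_22973 had 3.90 and 5.07, and C0J45_23491 had 10.98 and 3.99. Anterior gradient protein 2 homolog (C0J45_23264), a mucous cell marker, had 13.9 and 20.1. Intelectin, a sugar-binding secreted protein, divided by copy, with 55.9 against 0.0439 at C0J45_20379 and 30.1 against 136 at C0J45_22806.

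The skeleton of the gill was marked by cartilage genes, of which 17 of 25 compared were higher in Gill and 2 in Kidney, with a median of 3.29. Collagen X (C0J45_16658), the collagen of enlarging cartilage cells, had 710 FPKM in Gill and 0.421 in Kidney, and no other tissue passed 1.54. Collagen XI alpha-1 (C0J45_17409), a fibril chain of cartilage, had 54.6 in Gill and 0.190 in Kidney, with 5.71 in Maxillary_barbel and 3.38 in Mandibular_barbel. Aggrecan (C0J45_05257), the main proteoglycan, had 56.3 and 0.0370, and it was higher in Maxillary_barbel at 228, with 20.1 in Mandibular_barbel. The exceptions were tissue-nonspecific alkaline phosphatase (C0J45_17095), at 3.57 and 134, which is also a brush border enzyme, and cartilage oligomeric matrix protein (C0J45_09185), at 0.147 and 40.6.

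Regulators of the pharyngeal arches, the embryonic origin of the gills, had the highest median of all lists, 3.87, with 14 of 18 compared higher in Gill and none in Kidney. Pax-1 genes, factors of the pharyngeal pouches, had 71.0 FPKM in Gill and a listed 0 in Kidney (C0J45_20165) and 59.8 and 0.00951 (C0J45_08007). Pax-9 (C0J45_07924), their relative, had 28.9 and 0.309, and GATA binding protein 2a (C0J45_17258), a factor of several lineages, had 185 and 4.19. Dlx homeobox genes, which pattern the arches, were at 7.25 to 38.3 FPKM in Gill for 6 members and at most 0.0495 in Kidney.

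Of 34 vessel genes compared, 5 were higher in Gill, 14.7%, and 6 in Kidney, 17.6%, beside 9.86% and 8.15% of all genes. Their median was 0.22, though their mean was -0.07. Von Willebrand factor (C0J45_12647), a clotting protein of endothelium, had 145 FPKM in Gill and 7.97 in Kidney, and platelet endothelial cell adhesion molecule (C0J45_00042) had 89.1 and 2.64. The scavenger receptors stabilin-1 (C0J45_17037) and stabilin-2 (C0J45_16157), of sinus endothelium, went the other way, at 2.77 against 51.1 and 1.28 against 38.5. Models of the vascular endothelial growth factor receptor also had more in Kidney, at 4.23 against 27.3 (C0J45_05008) and 6.82 against 14.3 (C0J45_19836). Another platelet endothelial cell adhesion molecule model (C0J45_13183) was close in the pair, at 6.70 and 4.90. Cadherin-5 (C0J45_21993), the junction protein of all endothelium, was level at 34.01 and 33.6.

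The remaining genes with the largest ratios toward Gill were of mixed kind. The largest was a gene named microfibril-associated glycoprotein 4 (C0J45_18965), with 1158 FPKM in Gill and 0.125 in Kidney, a log2 ratio of 10.01. Copies of it had 719 (C0J45_24502), 509 (C0J45_18964) and 234 FPKM (C0J45_25119) in Gill and at most 0.0760 in Kidney, and reads could have been split among them. The last had 86.9 and 127 in the barbels. Ly-6/neurotoxin-like protein 1 (C0J45_10225) had 870 FPKM in Gill and 0.122 in Kidney, with 373 in Maxillary_barbel and 566 in Mandibular_barbel. Ladderlectin (C0J45_06619), a defence lectin of fishes, had 549 and 0.136, and it was listed at 0 in Maxillary_barbel and had 317 in Mandibular_barbel. Apolipoprotein Eb (C0J45_03720), a lipid carrier, was the fourth-highest gene of the Gill library at 4134, with 12.9 in Kidney and 2199 and 2563 in the barbels.

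Arachidonate 15-lipoxygenase and the kinase gene fyna had little in the barbels, and the others were present there. Arachidonate 15-lipoxygenase (C0J45_06175), which makes lipid signals, had 284 FPKM in Gill and 0.390 in Kidney, and no other tissue passed 0.963. The kinase gene fyna (C0J45_07665) had 501 and 0.694, with 0.888 in Maxillary_barbel and 1.26 in Mandibular_barbel. The GPI-anchored protein pfl2 (C0J45_05603) had 442 and 0.0336, with 89.5 and 149.7 in the barbels. A lipopolysaccharide-induced factor (C0J45_20494) had 239 and 0.0357, with 47.98 and 82.3 in the barbels, and forkhead box Q1a (C0J45_06603) 181 and a listed 0, with 253 in Maxillary_barbel.

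Oxidative phosphorylation and cell division genes were level. None of 52 genes of oxidative phosphorylation compared was 4-fold apart, with a median of 0.28, and none of 37 cell division genes was, with a median of -0.02. Cytochrome c oxidase subunit I (C0J45_25303), a mitochondrial gene and the highest of the Gill library at 5978 FPKM, had 9130 in Kidney, and the actin of the cytoplasm (C0J45_19383) had 5283 and 4852. Of 30 genes of osmotic and acid stress metabolism compared, 4 were higher in each organ, 13.3% beside the 9.86% and 8.15% of all genes, with a median of 0.11 and log2 ratios from -5.52 to 3.45. Cysteine sulfinic acid decarboxylase (C0J45_14888), which makes the osmolyte taurine, had 0.105 in Gill and 49.9 in Kidney, and aldose reductase (C0J45_16293), which makes sorbitol, had 0.198 and 15.7. NAD(P)H dehydrogenase 1 (C0J45_08883), a detoxifying enzyme, had 99.2 in Gill and 8.19 in Kidney, and the oxygen-sensing factor endothelial PAS domain protein 1 (C0J45_01749) had 86.8 and 15.5. Neuroendocrine genes gave 1 gene compared of 35 matched, neither way.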

How the data were processed

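The submitters' labels put 18 libraries in 18 tissues, 1 each; Gill was compared with Kidney, and levels in Head_kidney and both barbels stand beside them. Per the labels' protocols, polyadenylated RNA went into paired-end libraries, and StringTie 1.3.4d is named in the submitters' processing notes. Aligner, genome build, annotation version and strand use: not given in the sources used here. Deposited FPKM values, normalized by the authors for length and depth, were used unscaled; the tissue columns all named a sample. Protein names, coordinates (1-based) and coding lengths come from the deposited annotation table, joined by locus tag; 950 of the genes compared have no protein name.

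No test was run, since each tissue has 1 library. A pseudocount of 1, a minimum of 5 FPKM in either library and a 4-fold threshold were used. Only 18.6% (Gill) and 20.2% (Kidney) of low values were within 0.05 fragments of a whole number, so counts could not be recovered, and counting intervals are not given. The lists hold 933 symbols in 33 lists, matched to models by protein name; claudins named by a letter were put in the tight junction list. Members and lists were chosen with earlier results of these data known, and the protein names standing for each symbol were written after the tables had been opened. Named genes are the 15 per direction with the largest ratio, at 20 FPKM or more and with a protein name, the 5 highest per library, and list members.

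Near-identical copies (globins, claudins, keratins, the microfibril genes and tandem carriers) can share reads, so single copies are uncertain, as are overlapping genes. Alternatives were a pseudocount of 0.1, minimums of 1 and 20 FPKM or none, an 8-fold threshold, libraries set to the same sum, upper quartile or median ratio, hemoglobin and mitochondrial genes left out, list means and the highest model per symbol. Only the calling of differences was tested on simulated data, with 8-fold changes in genes with a mean of at least 20 FPKM. Low values, list matching and the other steps were not tested in this way. Python 3.11.15, pandas 2.3.3, numpy 2.4.6 and matplotlib 3.10.9 were used.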

Additional observations from a re-analysis of the deposited data

How the results depend on the processing

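No paired analysis was possible because each organ has 1 library and the labels carry no replicate numbers; for the same reason no replicate could be left out. The counts of 1242 genes higher in Gill and 1027 in Kidney became 698 and 502 at a minimum of 20 FPKM and 632 and 574 at 8-fold. The other 7 alternatives gave 1121 to 1476 and 909 to 1149. Calls higher in Gill made up 54.7% of all calls, 61.9% with both libraries at the same sum and 50.1% with the median ratio set to 0. Of the 95 ion-regulating genes at least 4-fold apart, 91 remained so with both libraries at the same sum, 93 at the same upper quartile and 94 with the median ratio set to 0. Those that fell short were anion exchanger 1b, Rh type C-like 2, CFTR, Sgk1, sodium/hydrogen exchanger 1 (C0J45_19684) and solute carrier family 12 member 8 (C0J45_03101). Of 349 named genes and list members in all, 336 to 349 remained so under 4 of these alternatives, and 343 of 344 with hemoglobin and mitochondrial genes left out.

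Of 33 list medians, 20 kept their sign under every alternative run and 13 changed sign or reached 0. A minimum of 1 FPKM gave -0.39 for carbonic anhydrases, -0.37 for glomerular genes and -0.15 for potassium channels. A minimum of 20 FPKM gave 3.30 for aquaporins and -1.38 for potassium channels. With no filter, carbonic anhydrases gave -0.0694, glomerular genes -0.22, and hormone receptors and potassium channels 0. The mean in place of the median gave -0.0651 for vessel genes, -0.0208 for hormone receptors and -0.81 for potassium channels. The highest model of each symbol gave -0.37 for glomerular genes and -0.55 for potassium channels. Setting both libraries to the same sum gave 0.0134 for chloride channels and 0.0889 for proton pumps. The medians ran from -0.0350 to 0.47 for calcium and magnesium genes, -1.02 to 0.18 for cation chloride cotransporters, -0.92 to 0.52 for lymphoid cells, -0.0947 to 0.41 for osmotic stress and -0.21 to 0.27 for cell division. The cause was not tested. Depth was estimated from the low values and not counted, and no replicate bounds these values.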

Other observations

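Genes that Gill and Kidney share apart from the other 16 tissues were looked for by a rule chosen after the values were seen: at least 5 FPKM in both organs, and the lower of the pair at least 4-fold above every other tissue on FPKM + 1. It found 14 genes. The same rule found 62 genes for Kidney with Intestine, 27 for Kidney with Head_kidney and 1 for Gill with Skin. These counts cannot be ranked, since the rule drops any gene shared with a further like tissue. For Gill with Skin the barbels are among the other tissues, and they share surface genes such as keratin 4 with Gill. Estimated depth also differed, at 12700000 fragments in Skin and 51000000 in Gill. Of the 14, 6 carry ions, ammonia or acid equivalents. For scale, 236 of all 12596 genes compared are on a list of ion regulation. Of the 6, those already described are Rh type B, Rh type C-like 2, NHE3, anion exchanger 1b and the chloride channel 2b gene (C0J45_11104). The other is an inward rectifier potassium channel named 15 (C0J45_10811, 17.1 FPKM in Gill and 13.7 in Kidney).

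The other 8 include calcineurin B homologous protein 1 (C0J45_02001), a binding partner of sodium-proton exchangers, at 197 FPKM in Gill and 121 in Kidney, with no other tissue above 27.0. Protein S100-A11 (C0J45_23274), a calcium-binding protein, had 1017 and 689 FPKM and at most 41.3 elsewhere. Transmembrane protease serine 13 (C0J45_21575), a membrane protease, had 75.2 and 19.5, and sortilin (C0J45_16448), a sorting receptor, had 20.2 and 8.34. Insulin-like growth factor binding protein 5a (C0J45_00318), whose zebrafish counterpart marks calcium-absorbing ionocytes, had 45.5 and 17.3. Tetraspanin-16 (C0J45_13161), a membrane organizer, was the member with more in Kidney, at 39.4 and 148. T-lymphocyte maturation-associated protein (C0J45_08477) had 62.7 and 42.7, and an unnamed protein (C0J45_12087) 42.0 and 8.28.

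In 357 pairs of adjacent genes both were at least 4-fold apart, in the same direction in 287 and in opposite directions in 70. All adjacent pairs were not counted, so no share over all genes stands beside these numbers. Whether neighbours share a direction more often than other genes was not tested. Of 117 pairs with the same family name, 50 were both higher in Gill, 59 both in Kidney and 8 opposite. Of the 59 pairs toward Kidney, 27 were immunoglobulin lambda-1 light chain models, 9 olfactomedin models and 3 T-cell receptor beta models. In 23 of the 117 the models lay less than 1000 bases apart, on the same strand in 12, so some pairs may be 1 gene split in 2 models. The opposite pairs included claudin 10a and claudin-10 on chromosome 3 and mucin-2 (C0J45_09607, 9.48 FPKM in Gill and a listed 0 in Kidney) beside mucin-5B (C0J45_09608, 0.460 and 13.02) on chromosome 10.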
